A study of Mus musculus with 8 samples.

Results

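Mpo, Elane, Prtn3 and Ctsg encode the enzymes packed into primary (azurophil) granules, the storage granules that granulocyte and monocyte precursors build first. These 4 genes of 19938 with a value were followed through sorted dendritic cell progenitors of mouse bone marrow. They were selected on their own levels in these arrays, as early granule genes that were lower or varied where late granule genes were higher. Their levels and differences are therefore a description and carry no test.

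Each gene was read by a single probe set of an Affymetrix gene array annotated with its symbol alone: 10380174 for Mpo, 10364535 for Elane, 10364529 for Prtn3 and 10420261 for Ctsg. Of 8 arrays, 2 were made from each of 4 populations. Id2-GFP- CDP and Id2-GFP+ CDP are common dendritic cell progenitors, as the field expands CDP, without and with fluorescence of a green reporter placed behind the Id2 gene. Id2-GFP- pre-CD8 and likewise Id2-GFP+ pre-CD8 are the corresponding fractions of a population that the labels name pre-CD8 and do not define. The source labels give Id2-IRES-GFP reporter mice for all samples. The genotype field gives heterozygous Id2-IRES-GFP mice for 2 samples, both Id2-GFP- CDP, and heterozygous Zbtb46-GFP mice for the other 6, so comparisons with Id2-GFP- CDP also set different genotype entries side by side. Cells were sorted into medium with Flt3L, the labels name no drug or other treatment of the mice, ages and sort gates are not in the sources used here, and the number of mice behind a sample is not stated. Replicates are therefore separate samples of unknown origin, and their spread may be technical.

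Values are log2 of the deposited intensity, so a difference of 1 is a factor of 2. A probe set's level can be compared between arrays and not with the level of another probe set. The 8 arrays had medians from 6.12 to 6.27 and fell into a brighter and a dimmer array in every group, with mean intensities of 461 to 478 and 402 to 414. The brighter array was replicate 1 in both Id2-GFP- groups and replicate 2 in both Id2-GFP+ groups, and differences are also given within the brighter and within the dimmer arrays. The 6 markers of dendritic progenitors (Flt3, Csf1r, Kit, Irf8, Cx3cr1 and Cd34) averaged 10.47 to 11.45 on all arrays, but single genes were less even. Csf1r read 11.10 and 10.97 in Id2-GFP- CDP and 8.09 and 7.93 in Id2-GFP+ pre-CD8. In pre-CD8, 2 of the 6 were higher and 3 lower with the reporter by limma at an adjusted p under 0.05. Of all genes 3.57% were higher and 2.70% lower there. The 6 markers of cDC1 precursors (Batf3, Zbtb46, Clec9a, Xcr1, Tlr3 and Cd226) averaged 5.54 to 6.27 on the Id2-GFP- arrays and 7.52 to 9.13 on the Id2-GFP+ arrays. Among them Clec9a differed by -0.02 between reporter classes in CDP, and Xcr1 read 4.61 to 5.66 over all arrays. In bulk samples like these, fewer cells of a type and less RNA per cell cannot be told apart.

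Myeloperoxidase, the product of Mpo, is a haem enzyme that makes hypochlorous acid from hydrogen peroxide and chloride. Neutrophil elastase (Elane), proteinase 3 (Prtn3) and cathepsin G (Ctsg) are serine proteases of the chymotrypsin fold, trimmed to their active form by cathepsin C and stored on the proteoglycan serglycin. Transcription of all 4 genes is a mark of promyelocytes and of granulocyte and monocyte progenitors, and it is switched off before late granule proteins such as lactoferrin are made. C/EBP, PU.1, Myb and Runx factors are known regulators of this programme.

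The upstream sequence of the 4 genes is shown because the letters of an ETS motif, less frequent over all promoters than the Myb letters also found in each, occurred in all of them. Each line gives the 250 bases before the RefSeq transcription start on the strand of the gene, from GRCm38.p6. Capitals mark matches, on either strand, to 5 motifs: AGGAAGT (letters of sites for ETS factors such as PU.1), AACNG (Myb), TATAA (TATA box), TGTGGT (Runx) and TTGCNNAA (C/EBP). The windows are chr11:87793534-87793783 on the plus strand for Mpo, chr10:79886062-79886311 on the plus strand for Elane, chr10:79879417-79879666 on the plus strand for Prtn3 and chr14:56102575-56102824 on the minus strand for Ctsg.
Mpo: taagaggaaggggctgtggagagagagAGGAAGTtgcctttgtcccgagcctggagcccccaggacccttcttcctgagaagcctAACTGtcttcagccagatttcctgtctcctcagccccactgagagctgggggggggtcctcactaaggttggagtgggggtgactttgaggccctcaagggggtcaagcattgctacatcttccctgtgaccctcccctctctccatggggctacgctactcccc
Elane: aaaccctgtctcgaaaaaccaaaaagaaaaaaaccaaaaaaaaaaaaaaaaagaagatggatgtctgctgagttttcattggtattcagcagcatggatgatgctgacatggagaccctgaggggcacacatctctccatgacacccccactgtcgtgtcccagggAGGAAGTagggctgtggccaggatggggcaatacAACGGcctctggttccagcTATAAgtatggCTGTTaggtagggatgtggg
Prtn3: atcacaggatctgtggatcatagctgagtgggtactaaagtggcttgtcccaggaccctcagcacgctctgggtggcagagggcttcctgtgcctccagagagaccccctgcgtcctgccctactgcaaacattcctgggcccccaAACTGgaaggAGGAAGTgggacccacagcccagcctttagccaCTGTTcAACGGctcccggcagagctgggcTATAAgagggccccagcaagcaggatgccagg
Ctsg: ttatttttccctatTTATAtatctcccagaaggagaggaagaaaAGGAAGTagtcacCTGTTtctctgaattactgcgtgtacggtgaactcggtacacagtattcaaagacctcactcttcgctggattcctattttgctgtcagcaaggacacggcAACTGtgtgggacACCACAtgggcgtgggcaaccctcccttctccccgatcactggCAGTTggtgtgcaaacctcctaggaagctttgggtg

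The motifs were chosen after these sequences were seen, so matches in the 4 windows carry no test against the shares of all windows. The ETS letters lay on the sense strand of all 4 windows, and 7.69% of 32851 RefSeq windows of the same length held them on either strand. They began 94 bases before the start of Prtn3 and 84 bases before that of Elane, against 223 for Mpo and 206 for Ctsg. Myb letters were in all 4 windows as well, but 74.2% of all windows held them. Prtn3 and Elane, which are adjacent genes, both had AACGG downstream of the ETS letters, beginning 55 and 50 bases before the start, and then TATAA, beginning 32 and 31 bases before it. TATAA letters were found in 22.8% of all windows, and those of Ctsg lay far from the start, beginning 236 bases before it on the opposite strand. The Runx letters were in the Ctsg window alone of the 4 and in 14% of all windows. The C/EBP letters were in none of the 4 and in 9.56% of all windows. No matches shared a base, and a match is a description of letters, not of a bound site.

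Mpo was highest in Id2-GFP- CDP, at 13.53 and 12.92 on the 2 arrays (13.23 ± 0.43, mean ± SD, n = 2). The other CDP fraction, Id2-GFP+ CDP, read 11.78 and 13.25 (12.51 ± 1.04), and Id2-GFP- pre-CD8 read 12.85 and 12.11 (12.48 ± 0.52). Id2-GFP+ pre-CD8 read 10.31 and 10.73 (10.52 ± 0.30), below every other array. The 2 middle groups overlapped each other and differed by far less than their spread, and Id2-GFP+ CDP also overlapped Id2-GFP- CDP.

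Ctsg followed the same order of groups. It read 12.21 and 11.16 in Id2-GFP- CDP (11.68 ± 0.74) and 9.89 and 11.63 in Id2-GFP+ CDP (10.76 ± 1.23). Id2-GFP- pre-CD8 read 10.28 and 8.93 (9.61 ± 0.96), and Id2-GFP+ pre-CD8 read 7.60 and 8.45 (8.02 ± 0.60). As with Mpo, both Id2-GFP+ pre-CD8 arrays were below the other 6. The first 2 groups of this order overlapped, and so did Id2-GFP+ CDP and Id2-GFP- pre-CD8.

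Prtn3 separated the stages and not the reporter classes. Both CDP fractions were high, with 12.89 and 12.35 in Id2-GFP- CDP (12.62 ± 0.38) and 11.95 and 12.68 in Id2-GFP+ CDP (12.32 ± 0.51). Both pre-CD8 fractions were low, with 10.99 and 9.86 in Id2-GFP- pre-CD8 (10.42 ± 0.80) and 10.47 and 10.43 in Id2-GFP+ pre-CD8 (10.45 ± 0.03). The 4 CDP arrays did not overlap the 4 pre-CD8 arrays, and within each stage the reporter classes overlapped.

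Elane had an order of its own, with Id2-GFP+ CDP highest at 9.98 and 12.27 (11.12 ± 1.61). Id2-GFP- CDP read 10.75 and 8.93 (9.84 ± 1.29), and Id2-GFP+ pre-CD8 read 9.56 and 9.88 (9.72 ± 0.23). Lowest was Id2-GFP- pre-CD8, at 8.83 and 8.08 (8.45 ± 0.53), below all 6 other arrays. Id2-GFP- CDP overlapped both Id2-GFP+ groups, which did not overlap each other.

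**Figure D1:**
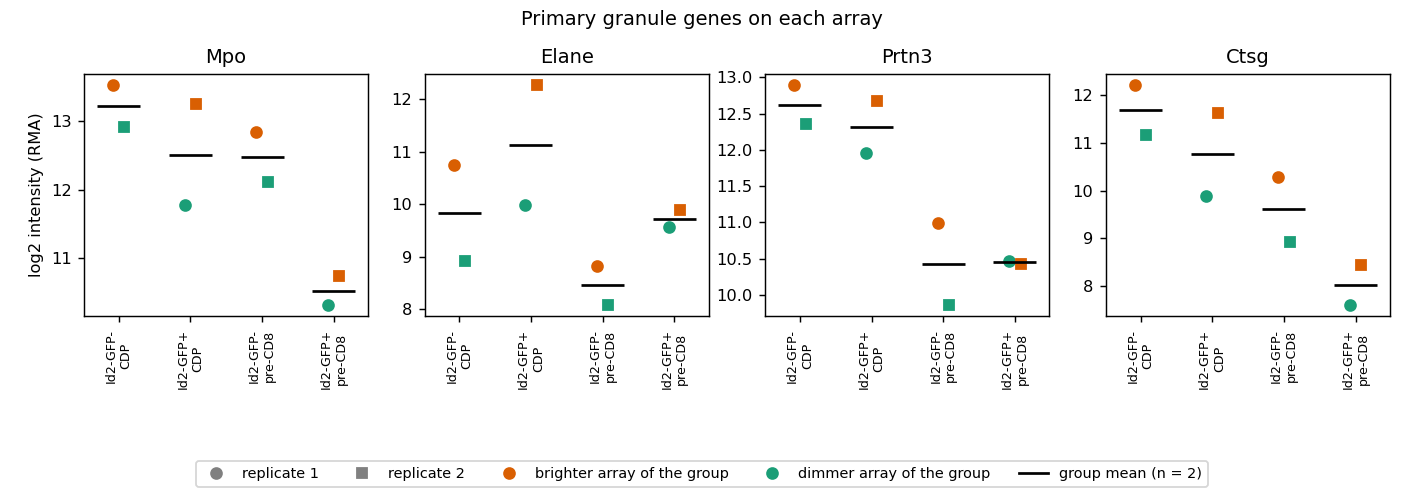
Log2 intensity of Mpo, Elane, Prtn3 and Ctsg on each of the 8 arrays, a panel per gene with its own axis, points for single arrays (orange for the brighter and green for the dimmer of a group, circle and square for replicates) and lines for group means (n = 2). Id2-GFP+ pre-CD8 lies lowest for Mpo (10.52) and Ctsg (8.02), both pre-CD8 groups lie low for Prtn3, and Id2-GFP- pre-CD8 lies lowest for Elane (8.45).

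The 4 genes also differed between replicate arrays more than most genes did. In 15 of 16 pairs of a gene and a group the brighter array of the group read higher than the dimmer. The excess was 1.82 and 2.28 for Elane in Id2-GFP- and Id2-GFP+ CDP, and 1.05 and 1.74 for Ctsg in the same groups. It exceeded the 95th percentile of all genes, 0.66 to 0.81 in the 4 groups, in 10 of the 16 pairs, while the median gene differed by 0.12 to 0.14. Mpo in Id2-GFP+ CDP differed by 1.48. The smallest value was Prtn3 in Id2-GFP+ pre-CD8, at -0.04. What separates brighter from dimmer arrays is not given in the labels, and its part in the levels of these genes was not tested beyond the values within each set.

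The first comparison was of stages, the name used here for CDP and pre-CD8, whose developmental order was not tested. Among Id2-GFP- cells all 4 genes were lower in pre-CD8 than in CDP, with no overlap of arrays. The difference was -2.20 ± 0.38 (log2 ± SE of the limma fit) for Prtn3 and -2.08 ± 0.66 for Ctsg, or 4.59-fold and 4.22-fold. It was smaller for Mpo, at -0.75 ± 0.46, and -1.38 ± 0.77 for Elane. Within the brighter and the dimmer arrays the values were -1.91 and -2.49 for Prtn3, -1.93 and -2.23 for Ctsg, -0.68 and -0.82 for Mpo, and -1.92 and -0.85 for Elane. Over all genes 16.1% were separated in this direction and 15.5% in the other.

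Among Id2-GFP+ cells all 4 genes were again lower in pre-CD8, and again no arrays overlapped. Ctsg differed by -2.74 ± 0.66 (6.69-fold), Mpo by -1.99 ± 0.46, Prtn3 by -1.87 ± 0.38 and Elane by -1.41 ± 0.77. Within the brighter and dimmer arrays Ctsg differed by -3.19 and -2.30 and Prtn3 by -2.25 and -1.49. Mpo gave -2.52 and -1.47. Elane was the least even of the 4, at -2.38 and -0.43. Of all genes 10.3% were separated in this direction and 8.94% in the other.

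Monocyte markers were also lower in pre-CD8 among Id2-GFP- cells. Of 5 with a value (Ccr2, F13a1, Fn1, Ms4a6c and Cd14), all 5 fell from Id2-GFP- CDP to Id2-GFP- pre-CD8 by limma at an adjusted p under 0.05. Of all genes 0.592% fell and 1.03% rose in that comparison. The mean level of the 5 markers was 9.52 to 9.58 in Id2-GFP- and 9.75 to 9.92 in Id2-GFP+ CDP. In pre-CD8 it was 7.15 to 7.43 without and 8.64 to 8.74 with the reporter. Among Id2-GFP+ cells none of the 5 passed, where 0% of all genes did, and the median difference of the 5 was -0.21. There F13a1 and Fn1 lay at -3.03 and -3.09, while Ccr2 lay higher in pre-CD8 by 0.64 and Ms4a6c differed by -0.04. An RMA level has a floor above 0, the lowest in the whole table being 2.33, so a level does not tell whether a marker is absent. The part of monocyte-type cells in the stage differences of the granule genes was not tested.

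The second comparison was of reporter classes. In CDP none of the 4 genes separated Id2-GFP+ from Id2-GFP- arrays, while 13% of all genes were separated upward and 12.0% downward. Elane was higher in Id2-GFP+ CDP by 1.29 ± 0.77, and by 1.52 and 1.06 within the brighter and dimmer arrays. Ctsg and Mpo lay lower, at -0.92 ± 0.66 and -0.71 ± 0.46, and Prtn3 at -0.31 ± 0.38. The within-set values were -0.58 and -1.26 for Ctsg, -0.28 and -1.15 for Mpo, and -0.21 and -0.40 for Prtn3. Without Id2-GFP+ CDP replicate 1 Mpo lay at 0.03 and Elane at 2.43, and without replicate 2 they lay at -1.45 and 0.15.

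In pre-CD8 Mpo, Ctsg and Elane differed in the same directions as in CDP. The pre-CD8 difference minus the CDP one was -1.24 ± 0.66 for Mpo and -0.66 ± 0.93 for Ctsg. It was -0.02 ± 1.09 for Elane and 0.33 ± 0.54 for Prtn3. Mpo was lower in Id2-GFP+ cells by -1.96 ± 0.46 (3.88-fold) and Ctsg by -1.58 ± 0.66 (3.0-fold). Elane was higher in Id2-GFP+ cells by 1.26 ± 0.77 (2.40-fold). None of these 3 overlapped between the classes, where 21.5% of all genes were separated downward and 19.0% upward. Prtn3 differed by 0.03 ± 0.38, or -0.08 after quantile normalization, with -0.56 within the brighter and 0.61 within the dimmer arrays. Within the sets Mpo differed by -2.11 and -1.80, Ctsg by -1.83 and -1.33, and Elane by 1.05 and 1.48.

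Counted by limma at an adjusted p under 0.05 over all genes, Mpo was lower in the pre-CD8 reporter comparison and Prtn3 in the stage comparison of Id2-GFP- cells. Over all genes 2.70% were called lower and 3.57% higher in the first of these, and 0.592% and 1.03% in the second. In the CDP reporter comparison 0 of the 4 genes were called, with 0.597% of all genes called higher and 0% lower. Among Id2-GFP+ cells 0 were called between stages, as were 0% of all genes in either direction, with 643 at an unadjusted p under 0.05. The call of Mpo was kept without 2 of the 8 arrays in turn and that of Prtn3 without 3, and both calls were lost with the replicate number as a block. With the brighter and dimmer sets as a block, 2 of the 4 were lower in the CDP reporter comparison, 2 lower and 1 higher in the pre-CD8 reporter comparison, 4 lower between stages among Id2-GFP- and 3 among Id2-GFP+ cells. Under that block 4.17%, 13.2%, 6.65% and 1.10% of all genes were lower and 11.0% higher in pre-CD8. The genes were chosen from these values, so nothing is read from the counts.

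**Figure D2:**
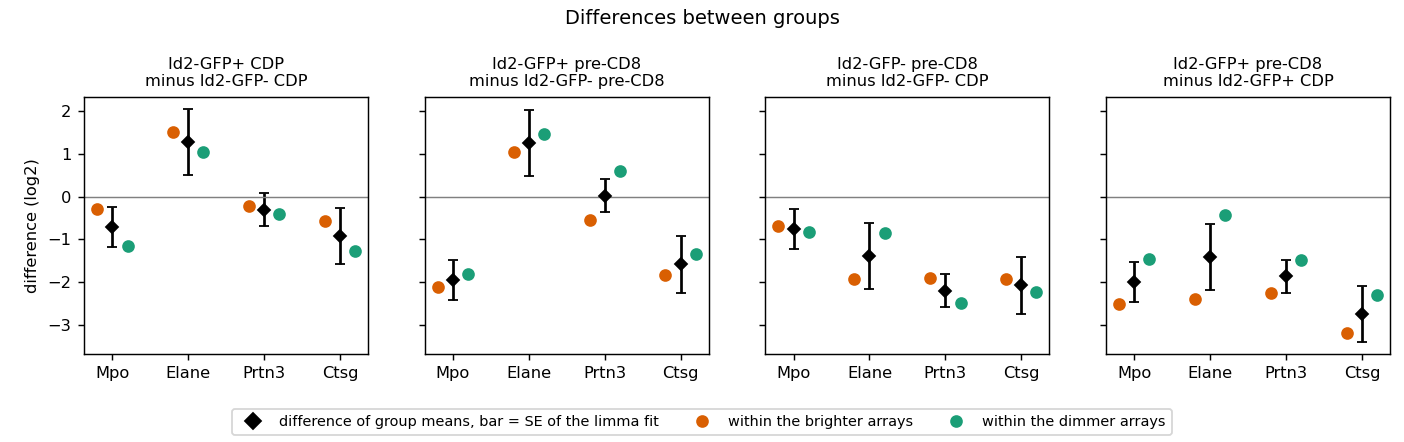
Differences of Mpo, Elane, Prtn3 and Ctsg (log2) in 4 comparisons, with diamonds for the difference of group means, bars for the SE of the limma fit, and circles for the difference within the brighter and within the dimmer arrays. All 4 genes lie below 0 in both stage comparisons, and Elane lies above 0 in both reporter comparisons (1.29 and 1.26) where Mpo and Ctsg lie below.

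Subtracting the log2 values of 2 of these genes on the same array removes what moved both alike, and what is compared is how that difference changes between arrays. Elane minus Mpo was -2.78 and -4.00 in CDP and -4.02 and -4.03 in pre-CD8 without the reporter. With it the values were -1.79 and -0.99 in CDP and -0.75 and -0.85 in pre-CD8. All 4 Id2-GFP+ arrays were above all 4 Id2-GFP- arrays, so Elane gained on Mpo with the reporter at both stages, by 2.00 in CDP and 3.22 in pre-CD8.

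Elane minus Ctsg was also separated by reporter class. It was -1.46 and -2.23 in Id2-GFP- CDP and -1.45 and -0.85 in Id2-GFP- pre-CD8, against 0.09 and 0.63 in Id2-GFP+ CDP and 1.96 and 1.43 in Id2-GFP+ pre-CD8. Elane minus Prtn3 was higher by 1.60 in Id2-GFP+ CDP and by 1.24 in Id2-GFP+ pre-CD8, without overlap inside either stage. Mpo and Ctsg kept closest together between reporter classes: Ctsg minus Mpo differed by -0.21 in CDP and 0.37 in pre-CD8, with overlap in both. Between stages Ctsg lost more than Mpo, by -1.33 among Id2-GFP- and -0.75 among Id2-GFP+ cells, without overlap. Prtn3 minus Mpo was -2.05 in Id2-GFP- pre-CD8 and between -0.60 and -0.07 in the other 3 groups. These differences are arithmetic on the chosen genes and carry no test.

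**Figure D3:**
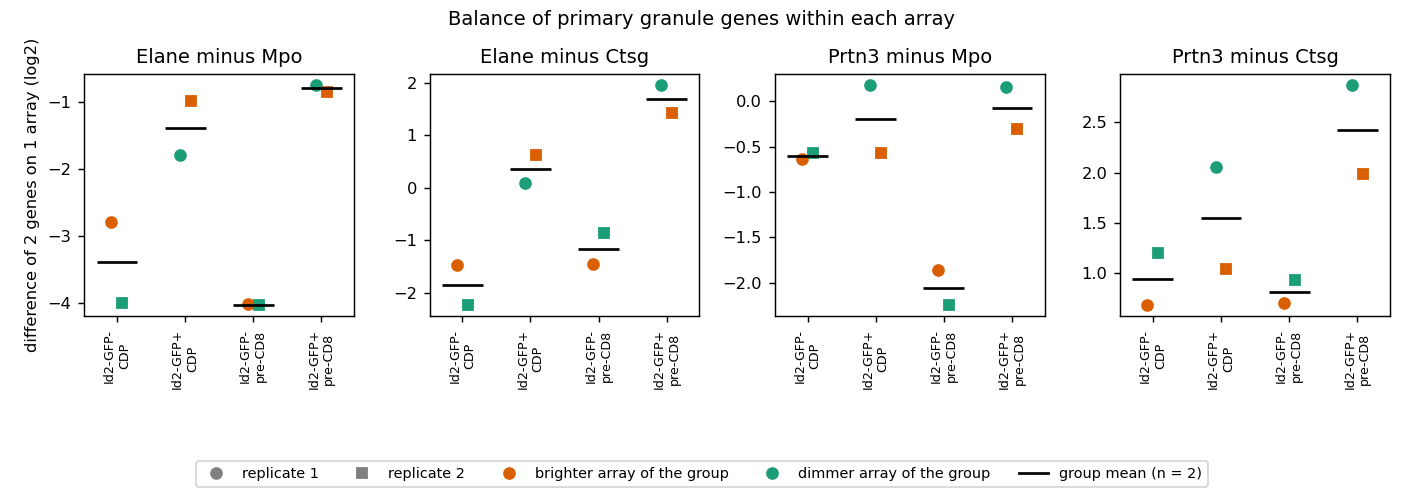
Difference of log2 intensity between 2 primary granule genes on the same array, a panel per pair of genes with its own axis, points for single arrays and lines for group means (n = 2). Elane minus Mpo and Elane minus Ctsg are higher on all 4 Id2-GFP+ arrays than on all 4 Id2-GFP- arrays.

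Late granule and secreted defence genes, which the choice of the 4 genes used as its contrast, are given as a description. Their 17 members (among them Ltf, Lcn2, Camp, Ngp, S100a8 and Chil3) had a median difference of 3.62 between reporter classes in CDP and 2.54 in pre-CD8, where the median of all genes was -0.0016 and -0.0080. The lowest of the 17 was 2.03 in CDP and 1.32 in pre-CD8, so all of them were higher in Id2-GFP+ cells at both stages. The largest were Chil3, a chitinase-like protein, at 4.96 and 3.43, Ltf (lactoferrin) at 4.84 and 2.93, and Lcn2 (lipocalin 2) at 4.75 and 2.93. Between stages among Id2-GFP- cells they ranged from -1.63 for Hp (haptoglobin) to 1.31 for Ngp (neutrophilic granule protein), and among Id2-GFP+ cells from -1.39 to -0.26. Elane lay on the side of the late genes between reporter classes, and Mpo and Ctsg lay on the other.

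Most markers of mature neutrophils moved with the reporter. Of 6 (Ly6g, Cxcr2, Csf3r, Retnlg, Mmp9 and Cd177) 5 rose in CDP and 4 in pre-CD8 by limma. Of all genes 0.597% rose in CDP and 3.57% in pre-CD8. Retnlg, Mmp9 and Cd177 are also among the late genes. The mean level of the 6 markers was 6.47 to 6.93 in Id2-GFP- and 9.0 to 9.99 in Id2-GFP+ CDP. In pre-CD8 it was 6.77 to 7.07 without and 8.02 to 8.76 with the reporter. Csf3r, the G-CSF receptor gene, passed in neither, at 0.34 ± 0.56 in CDP and -1.22 ± 0.56 in pre-CD8, where it was lower with the array sets as a block (adjusted p of 0.000301 by limma). Of 4 eosinophil markers 0 passed in either reporter comparison. Prg2, the major basic protein gene, read 7.22 and 6.45 in Id2-GFP- CDP against 9.13 and 9.85 in Id2-GFP+ CDP, and 5.93 and 5.76 against 5.82 and 9.41 in pre-CD8. Its CDP difference of 2.66 ± 0.94 passed with the array sets as a block (adjusted p of 0.0222 by limma). The 6 basophil and mast cell markers averaged 5.92 to 6.95 on all arrays, and 0 of them passed without a block. Among them Cpa3 read 5.28 and 5.35 in Id2-GFP- and 6.40 and 6.47 in Id2-GFP+ CDP. In pre-CD8 it read 6.23 and 7.70 without and 8.68 and 7.29 with the reporter. With the array sets as a block 2 of the 6 were higher and 0 lower between stages among Id2-GFP- cells. In the pre-CD8 reporter comparison 1 was higher and 1 lower under that block. Of all genes 5.82% and 6.65%, then 11.0% and 13.2%, were higher and lower. Of 6 early progenitor markers 3 were lower in Id2-GFP+ than Id2-GFP- pre-CD8 by limma and 0 higher, with a list median of -1.69. In that comparison 2.70% of all genes were lower. Between stages among Id2-GFP- cells 0 of the 6 passed, with a list median of 1.01. There 0.592% of all genes were lower and 1.03% higher. Of 3 B lineage markers 1 was lower in that reporter comparison and 1 was higher in that stage comparison. Of 4 plasmacytoid dendritic cell markers 1 was lower in the first and 0 passed in the second. The part of any of these cells in the levels of the 4 genes was not tested.

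The genes most like each of the 4 were found by Pearson's r of log2 intensity over the 8 arrays, among 1802 genes whose group means spanned at least 1. The arrays share the brighter and dimmer sets, so r is a description of these 8 arrays. Closest to Mpo were Zeb2, a zinc-finger repressor (r = 0.98), Adssl1, Tiam2, Mfsd13a and Slc49a4 (0.97 to 0.98). Zeb2 averaged 9.95 in Id2-GFP- and 8.73 in Id2-GFP+ CDP, and 9.04 and 6.78 in the pre-CD8 fractions in that order. Closest to Ctsg were the chemokine gene Ccl9 (r = 0.99), the necroptosis pseudokinase gene Mlkl, Nt5dc2, Rab44 and Abcd2 (0.97 to 0.98).

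Elane and Prtn3 had other companions. Closest to Elane was Ms4a3, a membrane protein of granulocyte and monocyte progenitors (r = 0.98), followed by Dram1, the glutathione reductase gene Gsr, the lipid A hydrolase gene Aoah and Pstpip2 (0.94 to 0.97). Ms4a3 read 8.60 and 7.06 in Id2-GFP- and 8.67 and 10.85 in Id2-GFP+ CDP. In pre-CD8 it read 6.77 and 6.04 without and 8.20 and 8.46 with the reporter, the same order of group means as Elane except for the close middle pair. Closest to Prtn3 were Frrs1, the annexin gene Anxa3, F13a1 (a subunit of coagulation factor XIII), Papss2 and Gria3 (r from 0.96 to 0.98). F13a1 averaged 11.30 and 10.19 in the CDP groups and 7.67 and 7.16 in the pre-CD8 groups.

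Genes whose products fill, line, process or restrain the primary granule were not among the 4 chosen genes, and were compared by limma. This list and those of regulators, neighbours and relatives below were made with earlier results of these data known. Their p-values are therefore not tests on fresh data. Of 19 such partners with a value 2 rose with the reporter in CDP and 0 fell, and in pre-CD8 1 rose and 1 fell. Of all genes 0.597% rose and 0% fell in CDP, and 3.57% rose and 2.70% fell in pre-CD8. The list median was 0.00 in CDP and 0.10 in pre-CD8. Lyz2, lysozyme of myeloid cells, rose by 2.83 ± 0.24 in CDP (adjusted p of 0.00196) and 2.35 ± 0.24 in pre-CD8 (adjusted p of 0.00151). Its arrays read 8.51 and 8.27 in Id2-GFP- CDP against 10.99 and 11.45 in Id2-GFP+ CDP, and 8.11 and 7.96 against 10.19 and 10.57 in pre-CD8. Lyz2 was the partner with the clearest rise, on the side of Elane and the late genes.

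Cd63, a membrane protein of primary granules and lysosomes, rose in CDP by 2.49 ± 0.41 (adjusted p of 0.0477), a call lost without any 1 of 5 arrays (adjusted p of at most 0.282). Cst7, which encodes cystatin F, an inhibitor of cathepsin C, had its change in pre-CD8, where it fell by 1.90 ± 0.26 (adjusted p of 0.00438). Cst7 read 9.71 and 9.69 in Id2-GFP- pre-CD8 and 7.63 and 7.96 in Id2-GFP+ pre-CD8. Cathepsin C itself, Ctsc, had a difference of 0.73 ± 0.20 with an adjusted p of 0.0826, and the serglycin gene Srgn -0.67 ± 0.18 with an adjusted p of 0.0673. Ms4a3, closest in pattern to Elane, did not pass at 1.93 ± 0.71 in either stage (adjusted p of 0.723 in CDP and 0.202 in pre-CD8). With the array sets as a block it passed in CDP (adjusted p of 0.00779 by limma). Prss57, another neutrophil serine protease, differed by 0.22 ± 0.30 and -0.35 ± 0.30.

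Between stages among Id2-GFP- cells 2 partners fell and 0 rose, with a list median of -0.13 against -0.0046 for all genes. Of all genes 0.592% fell and 1.03% rose. Slpi, a secreted inhibitor of elastase and cathepsin G, fell by 1.39 ± 0.19 (adjusted p of 0.0133), from 7.98 and 8.11 to 6.61 and 6.71. Hexa, a lysosomal hexosaminidase subunit, fell by 1.04 ± 0.19 (adjusted p of 0.0356). Both calls were lost without some arrays, 4 of 8 for Slpi and 6 of 8 for Hexa, the adjusted p reaching at most 0.127 and 0.263. Among Id2-GFP+ cells 0 partners passed, with a list median of -0.25. With the array sets as a block 4 rose and 3 fell in the CDP reporter comparison, 6 rose and 5 fell in pre-CD8, and 3 rose and 5 fell, then 0 rose and 6 fell, between stages. Of all genes, in the same order, 3.69% rose and 4.17% fell, then 11.0% and 13.2%, 5.82% and 6.65%, and 0.973% and 1.10%.

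Regulators and growth factor receptors of granulocyte and monocyte progenitors were tested in the same way. Of 18 genes 1 rose with the reporter in CDP and 0 fell, and in pre-CD8 6 rose and 1 fell. Over all genes 0.597% rose and 0% fell in CDP, and 3.57% rose and 2.70% fell in pre-CD8. Without a block, none of the 18 passed the interaction between the stages. List medians were 0.19 and 0.44. Cebpe, a factor needed for late granule genes, rose by 2.58 ± 0.42 in CDP (adjusted p of 0.0442) and 1.80 ± 0.42 in pre-CD8 (adjusted p of 0.0427). It read 7.04 and 6.62 in Id2-GFP- and 8.69 and 10.14 in Id2-GFP+ CDP. In pre-CD8 it read 7.02 and 6.84 without and 8.62 and 8.83 with the reporter, so that all Id2-GFP+ arrays lay above all Id2-GFP- arrays. The calls of Cebpe were lost without 7 and 6 of the 8 arrays in turn, the adjusted p reaching at most 0.274 and 0.218.

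In pre-CD8 Klf4, a zinc-finger factor of monocytes, rose by 3.26 ± 0.42 (adjusted p of 0.00380) and kept its call without each array. Csf2ra, a GM-CSF receptor chain, rose by 1.5 ± 0.22, Cebpd by 1.49 ± 0.28, Spi1, the gene of PU.1, by 1.44 ± 0.25 and Irf8 by 1.14 ± 0.22 (adjusted p from 0.00607 to 0.0205). These 4 each lost the call without 2 or 3 of the 8 arrays, the adjusted p reaching at most 0.149. Myb, named after its value was seen because it alone fell, fell by 1.29 ± 0.27 (adjusted p of 0.0270), a call lost without 4 of 8 arrays (adjusted p of at most 0.156). Runx1, Gfi1 and Cebpa did not pass, at -1.16 ± 0.35, -0.23 ± 0.40 and 0.40 ± 0.30 in pre-CD8. Between stages 0 of the 18 passed, with list medians of -0.17 and -0.11. With the array sets as a block 4 regulators rose and 2 fell in CDP, 10 rose and 5 fell in pre-CD8, and 1 rose and 7 fell among Id2-GFP- cells. Of all genes, in the same order, 3.69% rose and 4.17% fell, then 11.0% and 13.2%, and 5.82% and 6.65%.

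**Figure D4:**
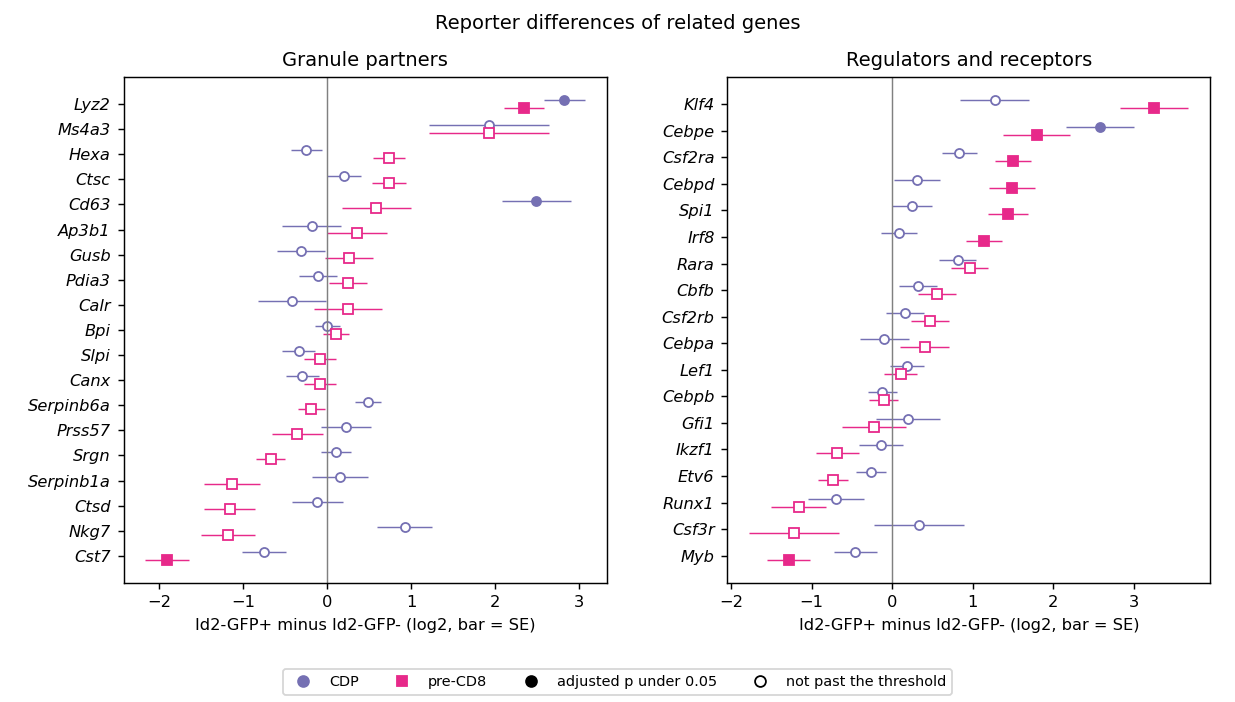
Reporter difference (Id2-GFP+ minus Id2-GFP-, log2, bar for the SE of the limma fit) of 19 granule partners and 18 regulators and receptors in CDP (circles) and pre-CD8 (squares), filled where the adjusted p was under 0.05. Lyz2 and Cebpe are filled at both stages, and Cst7 and Myb are the filled points below 0.

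The chromosomal neighbours of the 4 genes, and relatives in the peroxidase and granule protease families, were tested as a further list. The RefSeq gene table of GRCm38.p6 was used for gene order, with 5 protein-coding genes taken on each side of each gene. In CDP and in either stage comparison 0 of 36 genes with a value passed. With the reporter 3 rose and 0 fell in pre-CD8, where 3.57% of all genes rose and 2.70% fell. Of those 3, Mtmr4 and Rnf43 are neighbours of Mpo, and rose by 1.70 ± 0.20 (adjusted p of 0.00240) and 1.58 ± 0.18 (adjusted p of 0.00215), the opposite side to Mpo. The protease gene Gzma, a granzyme of lymphocytes, rose by 1.03 ± 0.24 (adjusted p of 0.0414), a call lost without 6 of the 8 arrays (adjusted p of at most 0.219). The list median was 0.02 in that comparison and 0.06 in CDP, and -0.07 and -0.09 between stages. With the array sets as a block 6 rose and 1 fell in the pre-CD8 reporter comparison, and 0 rose and 6 fell between stages among Id2-GFP- cells. Of all genes 11.0% rose and 13.2% fell in the first of these, and 5.82% and 6.65% in the second.

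Other neighbours are given by value, and none of them passed without a block. Plppr3, next to Prtn3 and named after its values were seen, lay at -1.12 ± 0.35 between reporter classes in pre-CD8 and -1.16 ± 0.35 between stages among Id2-GFP+ cells, without passing (adjusted p of 0.123 and 0.967). Its arrays read 9.73 and 9.34, 8.40 and 9.05, 9.16 and 8.21, and 7.54 and 7.59 in Id2-GFP- CDP, Id2-GFP+ CDP and then the pre-CD8 fractions in that order. Mcpt8, a basophil protease gene beside Ctsg, lay at -0.59 ± 0.45 and -1.04 ± 0.45 in the same comparisons, also without passing. Epx, the eosinophil peroxidase gene near Mpo, read 5.01 and 7.55 on the 2 Id2-GFP+ pre-CD8 arrays and differed by 1.04 ± 0.86. The interaction is the pre-CD8 reporter difference minus the CDP one. Without a block it was passed by 0 of the partners, regulators, neighbours and relatives, against 0.145% of all genes. With the array sets as a block it was higher for 3 and lower for 7 of 19 partners. It was higher for 5 and lower for 3 of 18 regulators under that block, and for 2 and 0 of 36 neighbours and relatives. Of all 19938 genes 815 were higher and 677 lower there. Mpo, 1 of the 4 chosen genes, was among the lower.

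**Figure D5:**
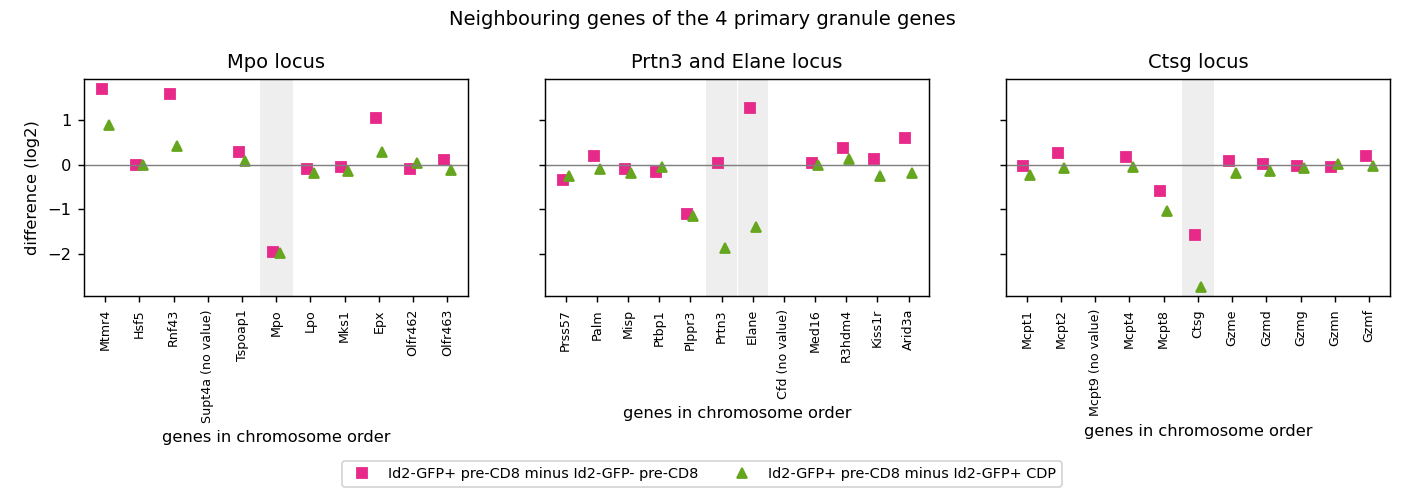
Difference of each gene (log2) in chromosome order around Mpo, around Prtn3 and Elane and around Ctsg, with squares for Id2-GFP+ minus Id2-GFP- pre-CD8 and triangles for Id2-GFP+ pre-CD8 minus Id2-GFP+ CDP, and grey bands at the 4 primary granule genes. Mtmr4 (1.70) and Rnf43 (1.58) lie above 0 near Mpo (-1.96), and Prtn3 (0.03) and Elane (1.26) differ although they are adjacent.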

How the data were processed

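Intensity values on a linear scale for 28853 probe sets were deposited by the authors, who used RMA in Affymetrix Expression Console per the submitters' processing notes, with no versions stated. RMA subtracts a modelled background, makes the arrays' distributions alike and combines the probes of a set, which compresses low values. The deposited intensity was converted to log2 here and not normalised again. The array annotation gave 1 symbol to 21789 probe sets, several to 1621 and none to 5443, and the probe set with the highest mean per gene left 19938 genes.

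limma 3.58.1 in R 4.3.3 fitted a mean per group to all 8 arrays, with an intensity trend in the variance prior, 4 residual and 4.19 prior degrees of freedom, and Benjamini-Hochberg adjustment over all genes. Precision is limited by the number of arrays. The fit was tested on simulated data in which arrays varied independently, without shared brighter and dimmer sets. That simulation cannot show how the fit behaves on arrays with such sets. No probe set was filtered. Promoter windows came from RefSeq (GRCm38.p6), matched by symbol for all 4 genes, and the motifs were chosen after the sequences were seen. Named genes were the 4 genes, the 5 most like each, and listed genes past the threshold, at most 6 a list by smallest p. Other listed genes were named outside this rule, such as Ctsc, Srgn, Prss57, Runx1, Gfi1, Cebpa, Mcpt8 and Epx, which did not pass without a block. Listed genes that differed in opposite directions were named for that, and markers were named as listed. The genes and lists were chosen with earlier results of these data known. Python 3.11.15 was used for preparation and figures. Quantile normalization, median centring, blocks, filters and left-out arrays were tried as alternatives.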

Additional observations from a re-analysis of the deposited data

Results flagged for a closer look

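Some listed genes differed in opposite directions, on every array, in the 2 stages or the 2 reporter classes. This was the case for 11 of 72 listed genes (15.3%) and for 1055 of all 19938 genes (5.29%). Without a block the limma interaction of these 11 had adjusted p-values of at least 0.131, so none passed there. With the array sets as a block, the interaction was passed by some genes of each of these lists, as counted at the end of the paragraph on other neighbours above.

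Among granule partners, the reporter difference in pre-CD8 minus that in CDP was -2.11 for Nkg7, a granule membrane protein of cytotoxic cells (0.92 in CDP and -1.18 in pre-CD8). It was 0.99 for Hexa and -0.68 for the protease inhibitor gene Serpinb6a. The stage difference in Id2-GFP+ minus that in Id2-GFP- cells was -1.90 for Cd63, -0.78 for Srgn, -0.68 for Serpinb6a and 0.53 for Ctsc.

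Among regulators that same value was 1.98 for Klf4 (-1.55 among Id2-GFP- and 0.44 among Id2-GFP+ cells), 1.06 for Irf8 and -0.47 for Etv6. For the Mpo neighbours Mtmr4 and Rnf43 it was 1.45 and 0.98.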

How the results depend on the processing

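Quantile normalization and median centring moved no difference of Mpo, Elane, Prtn3 or Ctsg beyond its replicate SD, though Prtn3 in the pre-CD8 reporter comparison went from 0.03 to -0.08 with the first and the Elane interaction from -0.02 to 0.11 with the second. Blocks, the filter, the trend and the 2-group fit cannot change a difference of group means in this balanced design, only its test. Counts below are in the order CDP reporter, pre-CD8 reporter, stage among Id2-GFP- and stage among Id2-GFP+ cells, with the interaction last, and the cause of each change was not tested. Genes called numbered 119, 1249, 324, 0 and 29.

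With the array sets as a block they numbered 1566, 4822, 2486, 414 and 1492, with partners at 7, 11, 8 and 6, regulators at 6, 15, 8 and 1, and neighbours and relatives at 3, 7, 6 and 2. With quantile normalization genes numbered 207, 2567, 858, 24 and 202, with partners at 8 in the pre-CD8 reporter comparison and 1 in the stage comparison of Id2-GFP+ cells, and regulators at 2, 11 and 4 in the first 3. Median centring gave 522 genes, 9 and 49 in the last 3, 5 partners in the pre-CD8 reporter comparison and 2 regulators between stages among Id2-GFP- cells. A filter on dim genes gave 9 genes between stages among Id2-GFP+ cells, 71 in the interaction, 6 partners in the pre-CD8 reporter comparison and 1 regulator between stages among Id2-GFP- cells. Fitting only the 2 groups gave 5 partners in the pre-CD8 reporter comparison, and no intensity trend gave 1 partner in the CDP one.

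With the replicate block genes numbered 157 between stages among Id2-GFP- cells and 6 in the interaction, partners 1 in that stage comparison and 1 in the CDP reporter comparison, and regulators 0 in CDP and 4 in pre-CD8. The calls of Mpo in the pre-CD8 reporter comparison and of Prtn3 between stages among Id2-GFP- cells were lost with it. Replicate numbers paired the samples between stages and not between reporter classes. Same-numbered deviations correlated at 0.71 between the Id2-GFP- groups and 0.69 between the Id2-GFP+ groups. Across reporter classes they correlated from -0.69 to -0.63. Crossing the numbers for the reporter comparisons gives the array set block.

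Leaving out each array in turn gave, for the CDP reporter difference, -1.45 to 0.025 for Mpo and 0.15 to 2.43 for Elane, with 35 to 126 genes, 1 to 2 partners, 0 to 1 regulators and 0 to 1 neighbours and relatives. In the pre-CD8 reporter comparison it gave -0.54 to 0.59 for Prtn3, 466 to 1313 genes, 2 to 6 partners and 1 to 8 regulators. Between stages it gave -2.76 to -1.64 for Prtn3, 77 to 326 genes, 0 to 2 partners and 0 to 1 regulators among Id2-GFP- cells. Among Id2-GFP+ cells it gave -2.73 to -1.26 for Mpo, -2.55 to -0.27 for Elane and 0 to 1 genes. The interaction ranged from -1.98 to -0.51 for Mpo, -1.16 to 1.12 for Elane and -0.23 to 0.90 for Prtn3, with 2 to 15 genes. Each of the 4 genes has 1 probe set, so another probe set could not be tried.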
